A study of Homo sapiens with 18 samples.

Results

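Control libraries of the 786-O line, which derives from a clear cell carcinoma of the kidney, were compared gene by gene: libraries labelled with a short hairpin control (shcontrol) against those of the siRNA control made for ANKRD35 (sicontrol_for_siANKRD35) and those of the siRNA control made for MITD1 (sicontrol_for_siMITD1). A gene was taken as a member when its mean log2(FPKM + 1) in shcontrol differed from each siRNA control by at least 1 (2-fold), in the same direction, and its 3 shcontrol libraries overlapped with neither siRNA control. Lack of overlap with the siRNA controls was thus set by the rule for each member and adds no support. FPKM counts fragments per kilobase of a gene relative to the size of the library. Of 11793 genes compared, 354 met the rule: 270 were higher in shcontrol than in both siRNA controls (2.29%) and 84 were lower (0.712%). The study knocked down RBCK1 with a short hairpin (shRBCK1) and ANKRD35 and MITD1 with siRNA (siANKRD35, siMITD1), with 3 libraries in each of 6 groups and no drug named. All cells were labelled as 786-O grown in RPMI-1640 with serum. Nothing in the labels describes the hairpin vector, selection, the siRNA or separate cultures, so the spread between libraries may be technical. The knockdown columns of the ANKRD35 table are named for a hairpin where the titles say siRNA.

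Each knockdown and its control were deposited in a table of their own, scaled separately. The kind of control reagent, the table and any batch therefore cannot be told apart, no table holds 2 of the control groups, and no p-value is given for a difference between tables. Reads recovered from the values ran from 16346478 to 17418255 per shcontrol library and from 17526827 to 19034974 per library of the siANKRD35 control. They ran from 12703947 to 13888443 for the siMITD1 control, counted only over genes whose values gave whole reads at the lengths of the RBCK1 table. The median over all genes compared lay 0.13 above the siANKRD35 control and 0.05 below the siMITD1 control on the log2 scale (medians 0.13 and −0.05). By the same rule, 832 genes were higher (7.06%) and 851 lower (7.22%) in the siANKRD35 control than in the other 2 control groups, and 311 (2.64%) and 407 (3.45%) in the siMITD1 control. With median-of-ratios scaling those splits became 1036 against 656 and 234 against 451, and with equal totals 931 against 747 and 209 against 460. In the MITD1 table, a set of broadly expressed genes that were at 5 FPKM or more in each library of the other tables were listed below 0.5 FPKM in each library. For the 10 members among them, all higher in shcontrol, only the comparison with the siANKRD35 control stands. Members below 5 FPKM in a library of the other tables could not be in this set. CCL5, HERC3 and LHX1 were such members and were also below 0.5 FPKM in each library of the MITD1 table. Their difference from the siMITD1 control is thus uncertain, and the same may hold for others.

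**Figure D1:**
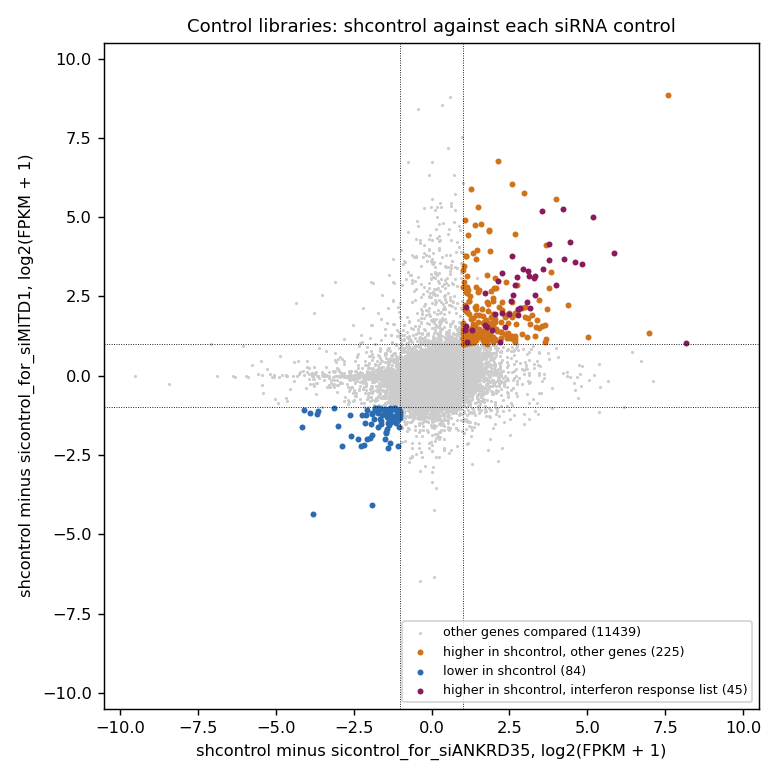
Difference of mean log2(FPKM + 1) between shcontrol and the siANKRD35 control (x axis) and between shcontrol and the siMITD1 control (y axis), with 1 point per gene compared and dotted lines at 2-fold. The 45 members from the interferon response list sit in the upper right corner among the 270 higher genes, and the 84 lower genes sit in the lower left corner.

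Type I interferons are secreted proteins that cells make when sensors such as RIG-I and MDA5 bind double-stranded or uncapped RNA in the cytosol. They bind a receptor at the cell surface, which through the kinases JAK1 and TYK2 activates a complex that holds STAT2 and IRF9. That complex binds the interferon-stimulated response element in promoters of antiviral genes. Short hairpin and small interfering RNAs are double-stranded RNAs used to silence genes, and non-targeting versions serve as controls.

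Interferon response genes were the group with the most members. Of 53 genes of the interferon response list that could be compared, 45 were higher in shcontrol than in both siRNA controls and 0 were lower, against 2.29% and 0.712% of all genes. The median difference over the 53 was 2.67 from the siANKRD35 control and 2.41 from the siMITD1 control, beside 0.13 and −0.05 over all genes. The list was drawn up with earlier results of these data known. The median FPKM over the 53 genes was 44.1, 43.7 and 45.6 in the shcontrol libraries. It was 5.31, 5.30 and 5.82 in the siANKRD35 control and 5.67, 5.64 and 5.53 in the siMITD1 control. The shcontrol libraries lay far above both siRNA controls, which lay close together. Of the 52 genes that were at least 4-fold higher in shcontrol than in both siRNA controls, 29 came from this list.

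Sequences upstream of these genes are shown because the list is defined by a response that acts through a known DNA element. Promoter windows of RefSeq on GRCh38.p14, from 250 bases before to 50 after the start, were found for 40 of the 45 members of the list that were higher. The response element, searched on both strands as GAAA, any 2 bases and GAAA, occurred in 26 of these 40 windows (65.0%, 95% exact Clopper-Pearson interval 48.3 to 79.4%) and in 996 of 27305 windows of the whole table (3.65%). Over all genes of the list that were compared, called or not, it occurred in 29 of 44 windows (65.9%), a share close to that of the called members. The letters of the AP-1 site (TGANTCA) were in 5 of the 40 windows (12.5%) and in 7.76% of all windows, and those of the kappaB site (GGGA, any base, TTTCC) in 2 (5.00%) and 0.579%. The ATF4 element (TGATGNAA) was in 1 of the 40 (2.5%) and in 3.67% of all. These are matches of letters, not binding sites, and the motifs were searched separately, so matches to different motifs may overlap. Windows were found for too few of all 270 higher genes (64.8%) and of the 84 lower genes (73.8%) to give shares there. Among the 15 genes with the largest increases, RN7SL2, OAS2, MX2, CCL5, MROH6 and USP18 had no window to search. The windows of OAS1, HELZ2, CMPK2, RSAD2 and AMH held no match to the response element, and the 4 windows below held 2 or 3. Capitals mark the matches, read 5′ to 3′ on the gene's strand. The windows are IFI27 at chr14:94110486-94110785 (plus strand), IFI6 at chr1:27672143-27672442 (minus), IFITM1 at chr11:313790-314089 (plus) and IFI44L at chr1:78620198-78620497 (plus).
IFI27: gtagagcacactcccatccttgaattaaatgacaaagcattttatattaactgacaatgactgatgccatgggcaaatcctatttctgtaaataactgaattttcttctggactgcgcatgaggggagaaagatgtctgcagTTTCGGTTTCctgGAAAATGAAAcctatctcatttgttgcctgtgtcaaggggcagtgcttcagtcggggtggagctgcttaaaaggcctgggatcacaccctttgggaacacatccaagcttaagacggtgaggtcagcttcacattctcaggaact
IFI6: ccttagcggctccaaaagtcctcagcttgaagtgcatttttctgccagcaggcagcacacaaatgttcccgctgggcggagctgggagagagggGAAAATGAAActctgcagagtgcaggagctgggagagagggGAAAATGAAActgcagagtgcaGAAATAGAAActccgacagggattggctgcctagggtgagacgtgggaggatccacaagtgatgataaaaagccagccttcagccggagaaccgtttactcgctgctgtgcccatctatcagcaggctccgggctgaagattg
IFITM1: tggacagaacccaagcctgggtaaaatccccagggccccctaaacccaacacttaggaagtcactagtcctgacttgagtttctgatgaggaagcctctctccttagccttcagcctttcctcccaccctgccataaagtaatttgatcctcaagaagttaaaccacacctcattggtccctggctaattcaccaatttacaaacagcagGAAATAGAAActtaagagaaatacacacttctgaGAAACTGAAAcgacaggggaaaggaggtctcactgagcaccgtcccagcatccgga
IFI44L: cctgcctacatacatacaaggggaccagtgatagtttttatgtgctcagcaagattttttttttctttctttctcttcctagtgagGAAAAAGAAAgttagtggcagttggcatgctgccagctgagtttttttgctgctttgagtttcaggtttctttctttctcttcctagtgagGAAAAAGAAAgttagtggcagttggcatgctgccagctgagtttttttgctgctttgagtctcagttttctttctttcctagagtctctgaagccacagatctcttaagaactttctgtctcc
In IFI27 the first match begins 108 bases before the start (position −108) and is the element on the opposite strand, and the other begins at −95. The matches of IFI6 begin at −156, −115 and −93, those of IFITM1 at −40 and −6, and those of IFI44L at −164 and −73.

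The ligand had reads in shcontrol and none in the siANKRD35 control. IFNB1, which encodes interferon beta, measured 4.71, 2.68 and 3.23 FPKM in the shcontrol libraries, on 153 reads in all, and was listed at 0 in each of the 6 siRNA control libraries. The MITD1 table lists some broadly expressed genes at or near 0, so a 0 there does not show absence. With 0 reads in the siANKRD35 control and a floor of 3 reads over that group, it was at least 54.3-fold higher in shcontrol. It was also listed at 0 in the 3 shRBCK1 libraries.

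Among sensors, DDX58, the gene of RIG-I, measured 76.3, 76.3 and 77.0 FPKM in shcontrol and 10.9, 13.8 and 11.1 FPKM in the siANKRD35 control, a ratio of 6.42. It is one of the genes near 0 in the MITD1 table. IFIH1, the gene of MDA5, measured 36.7, 37.3 and 37.7 FPKM in shcontrol, 8.17, 9.09 and 8.61 in the siANKRD35 control and 4.47, 4.85 and 4.54 in the siMITD1 control. EIF2AK2, the double-stranded RNA kinase PKR, was 4.001-fold and 3.45-fold higher (28.0 ± 0.85 FPKM in shcontrol, SD, n = 3). Each of the shcontrol libraries lay above all siRNA control libraries for these genes, as the rule requires. For DDX58 only the siANKRD35 control counts here. The related receptor DHX58 did not meet the rule, with 4.26, 4.04 and 4.26 FPKM in shcontrol, between the siANKRD35 control (6.96, 6.72 and 6.96) and the siMITD1 control (0.753, 1.01 and 0.897). MAVS, the adaptor of both sensors, likewise lay between the siRNA controls, at 10.01, 9.27 and 9.99 FPKM in shcontrol.

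Of 26 genes of the list of sensing and interferon signalling, 5 were higher (DDX58, IFIH1, EIF2AK2, IFNB1 and STAT2) and 0 lower, beside 2.29% and 0.712% of all genes. STAT2, the part of the complex specific to type I and III interferons, measured 23.2, 22.1 and 22.2 FPKM in shcontrol, 5.38, 4.45 and 4.49 in the siANKRD35 control and 5.54, 6.29 and 5.68 in the siMITD1 control. The shcontrol libraries were thus 4.71-fold and 3.85-fold higher, with no overlap, as the rule requires. IRF9, the DNA-binding partner of STAT2, missed the threshold, at 2.02, 2.59 and 2.09 FPKM and differences of 1.46 and 0.76. The kinase gene JAK1 lay lower in shcontrol, at 43.9, 44.3 and 44.9 FPKM, than in the siANKRD35 control (90.2, 92.4 and 91.5) and the siMITD1 control (67.1, 65.3 and 65.8), and its second difference of −0.56 missed the threshold.

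Antiviral effectors were among the largest increases. IFI6, a mitochondrial and endoplasmic reticulum protein that limits some viruses, measured 917, 946 and 906 FPKM in shcontrol, 15.3, 14.7 and 15.2 in the siANKRD35 control and 62.2, 63.7 and 58.9 in the siMITD1 control. That was 61.3-fold and 14.99-fold higher. OAS2, a synthase of 2′-5′ oligoadenylates, measured 69.6, 69.1 and 68.4 FPKM against 2.89, 2.46 and 2.85 and against 0.777, 0.866 and 0.876. Its relative OAS1 measured 81.9, 81.0 and 78.9 FPKM against 5.60, 4.74 and 4.47 and against 3.59, 3.55 and 3.64. Both were higher in each shcontrol library than in any siRNA control library, as the rule requires. IFI27 measured 36.4, 36.8 and 37.7 FPKM in shcontrol and at most 0.0939 in the siANKRD35 control, while 1 of 3 siMITD1 control libraries reached 0.595.

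Several further effectors were close to absent in at least 1 of the siRNA controls. MX2, a GTPase that blocks nuclear import of some viruses, measured 21.6, 20.4 and 21.2 FPKM in shcontrol, 0, 0 and 0.00851 in the siANKRD35 control (2 reads in all) and 0.184, 0.183 and 0.216 in the siMITD1 control. RSAD2, the gene of viperin, measured 64.8, 65.0 and 68.0 FPKM in shcontrol, 4.74, 4.88 and 4.72 in the siANKRD35 control and 0.803, 0.841 and 0.873 in the siMITD1 control. Its neighbour CMPK2, a mitochondrial nucleotide kinase, measured 14.2, 14.1 and 13.4 FPKM in shcontrol and no more than 0.230 in any siRNA control library. All of these sets were apart, as the rule requires. IFITM1, IFI44L and HELZ2 were also among the 15 largest increases, with means of 24.4, 36.3 and 82.0 FPKM in shcontrol. BST2, the gene of tetherin, was a member of another kind: it measured 328, 319 and 317 FPKM in shcontrol and 157, 158 and 159 in the siMITD1 control, but at most 0.366 in the siANKRD35 control.

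ISG15, a ubiquitin-like modifier, measured 818, 770 and 769 FPKM in shcontrol, 86.1, 93.5 and 92.2 in the siANKRD35 control and 78.0, 81.4 and 76.2 in the siMITD1 control. USP18, the protease that removes it, measured 57.4, 59.8 and 60.7 FPKM in shcontrol and between 3.29 and 5.06 in the siRNA control libraries. The modifier and its protease were thus high together in the same 3 libraries.

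The 8 genes of the list that did not meet the rule were IFI16, IFIT2, IFITM2, MX1, TRIM22, LGALS3BP, CXCL10 and APOL1. MX1, the relative of MX2, measured 2.29, 2.10 and 1.94 FPKM in shcontrol, beside 2.54, 2.62 and 2.21 in the siANKRD35 control, where the libraries overlapped. IFIT2 was 2.83 above the siMITD1 control but 0.33 above the siANKRD35 control on the log2 scale. CXCL10, a chemokine, measured 2.39, 2.12 and 2.31 FPKM in shcontrol and overlapped with the siANKRD35 control (2.13, 1.17 and 1.56). MX1 and CXCL10 were thus not apart from the siANKRD35 control. IFI16, a DNA sensor, was apart from both siRNA controls and fell just short of the 2-fold minimum, and with no fold minimum 50 genes of the list were called higher.

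**Figure D2:**
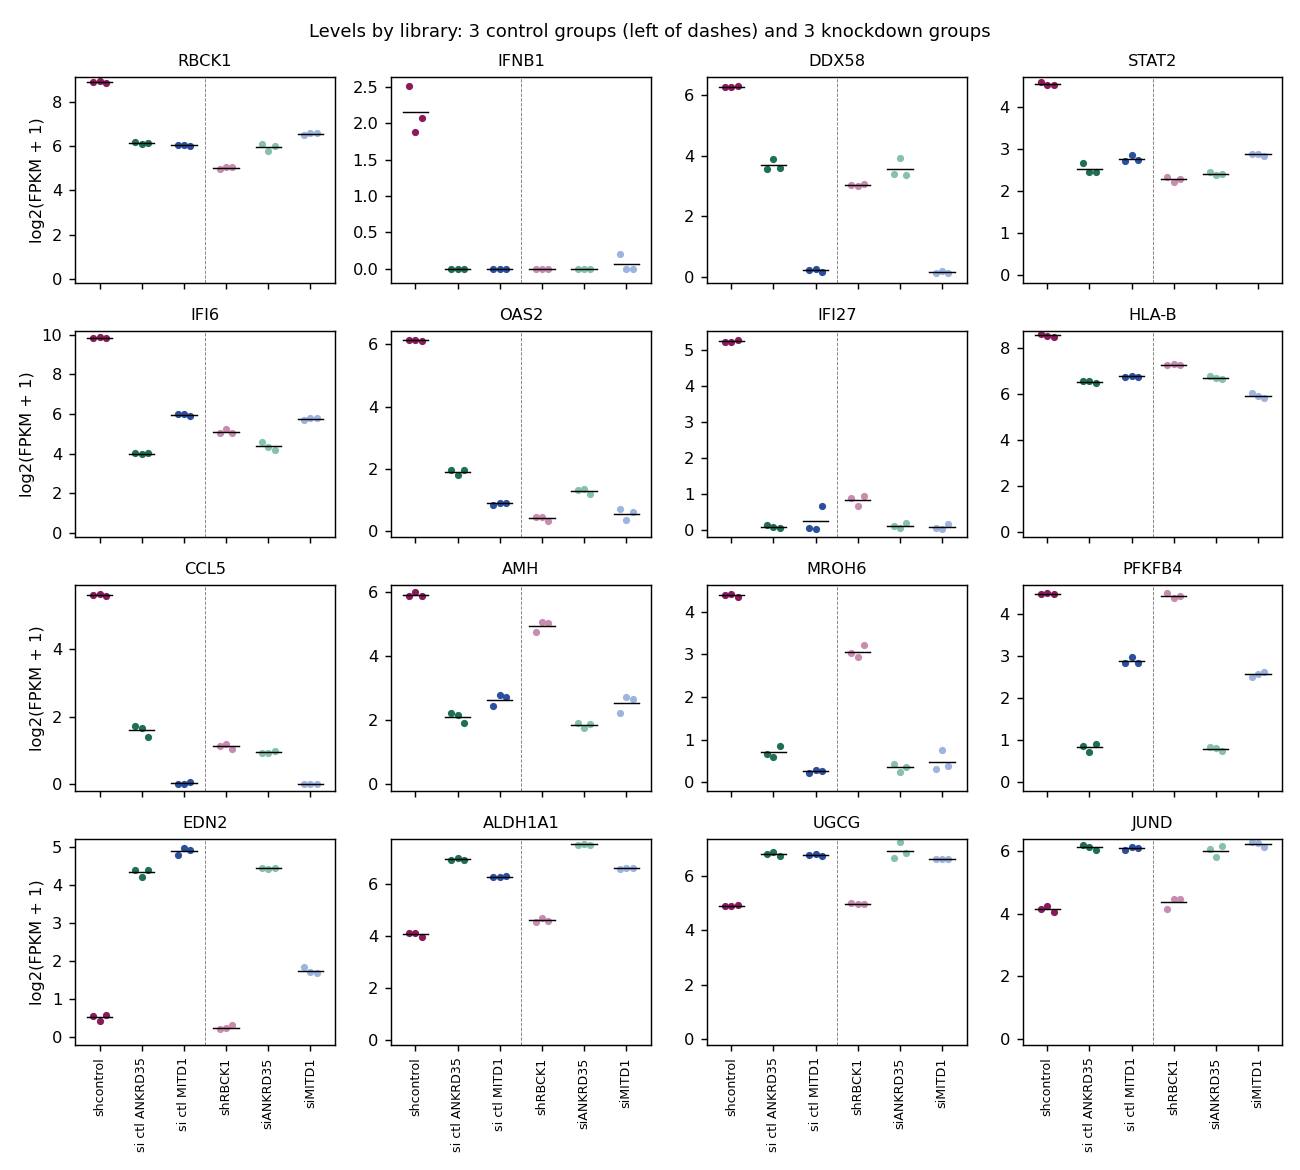
Level of 16 genes as log2(FPKM + 1) in each of 18 libraries, with 3 control groups left of the dashed line (si ctl is the siRNA control) and 3 knockdown groups right of it; points are libraries and bars are group means. RBCK1 and the interferon genes are highest in shcontrol, AMH, MROH6 and PFKFB4 stay high in shRBCK1, and the genes of the last row are low in both hairpin groups.

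Genes of antigen presentation, whose products load peptides on MHC class I at the cell surface, were higher in 7 of 21 cases and lower in 0, beside 2.29% and 0.712% of all genes. The class I heavy chain gene HLA-B measured 386, 370 and 360 FPKM in shcontrol, 92.9, 92.5 and 89.4 in the siANKRD35 control and 107, 110 and 106 in the siMITD1 control. B2M, the light chain, measured 322, 312 and 311 FPKM, with 115, 115 and 118 and then 70.8, 73.9 and 74.5 in the siRNA controls. Both were above each siRNA control library, as the rule requires. So was NLRC5, the class I transactivator, at 12.9, 12.3 and 12.2 FPKM against at most 0.642 and 2.98. HLA-C and HLA-F also met the rule. The remaining members, the peptide transporter gene TAP1 and the immunoproteasome gene PSMB9, were near 0 in the MITD1 table, as were 5 genes of this list in all. TAP1 measured 110, 109 and 110 FPKM in shcontrol and 22.8, 24.4 and 24.8 in the siANKRD35 control.

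Of 30 NF-kB targets compared, 2 were higher (the chemokine gene CCL5 and the adhesion molecule gene ICAM1) and 1 was lower (TNFAIP2), beside 2.29% and 0.712% of all genes. These counts rest on 1 or 2 genes each. CCL5 measured 47.7, 48.2 and 46.6 FPKM in shcontrol, 2.32, 2.17 and 1.62 in the siANKRD35 control and 0, 0 and 0.0465 in the siMITD1 control. ICAM1 measured 58.6, 57.6 and 57.7 FPKM, far above the siANKRD35 control (4.34, 3.49 and 3.28) and 2.15-fold above the siMITD1 control (26.2, 26.7 and 27.9). The inflammatory cytokine IL6 lay between the siRNA controls, at 51.5, 51.2 and 54.5 FPKM in shcontrol, 619, 617 and 572 in the siANKRD35 control and 7.64, 8.05 and 8.91 in the siMITD1 control. The neutrophil chemokine CXCL8 had the same order, with 65.1, 66.5 and 67.0 FPKM in shcontrol. The median difference of the 30 genes was −0.98 from the siANKRD35 control and 0.45 from the siMITD1 control.

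RBCK1 itself was a member. It encodes HOIL-1, a subunit of the complex that builds linear ubiquitin chains, and is the gene targeted in the knockdown that shcontrol accompanies. It measured 487, 491.7 and 462 FPKM in shcontrol, 73.1, 68.2 and 70.9 in the siANKRD35 control and 66.5, 65.2 and 64.7 in the siMITD1 control, 6.79-fold and 7.34-fold higher in shcontrol. The siRNA controls were close to each other and shcontrol stood apart. The level in the shRBCK1 libraries was 30.8, 32.0 and 32.9 FPKM, below both siRNA controls. RNF31, the catalytic subunit HOIP of the same complex, was higher at 6.86, 7.53 and 7.201 FPKM against 3.08, 2.88 and 2.31 and against 0.142, 0.156 and 0.212. RNF31 was below 0.5 FPKM in each siMITD1 library too, so its difference from the siMITD1 control is uncertain. The other 10 of the 12 genes of the linear ubiquitin list, the third subunit SHARPIN among them, did not meet the rule. Of 7 genes beside RBCK1 on chromosome 20, 0 were called. Over all genes 2.29% were higher and 0.712% lower, so counts in lists this short say little about either list. RBCK1 (ENSG00000125826) spans chr20:407498-430966 (GRCh38, plus strand).

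The other targets of the study gave the control groups different levels as well. ANKRD35 was listed at 0 in each shcontrol library and reached at most 0.0192 FPKM in the siMITD1 control, but measured 753, 687 and 742 FPKM in the siANKRD35 control. It was thus high in the control of its own table alone. MITD1, which acts with ESCRT-III in cytokinesis, measured 4.29, 4.18 and 4.23 FPKM in shcontrol, 10.3, 11.4 and 10.4 in the siANKRD35 control and 7.16, 7.42 and 7.83 in the siMITD1 control, and its smaller difference of −0.69 missed the threshold. ANXA1, the gene of annexin A1, hardly differed, at 144, 144 and 146 FPKM in shcontrol and 129 to 149 FPKM in the siRNA controls.

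**Figure D3:**
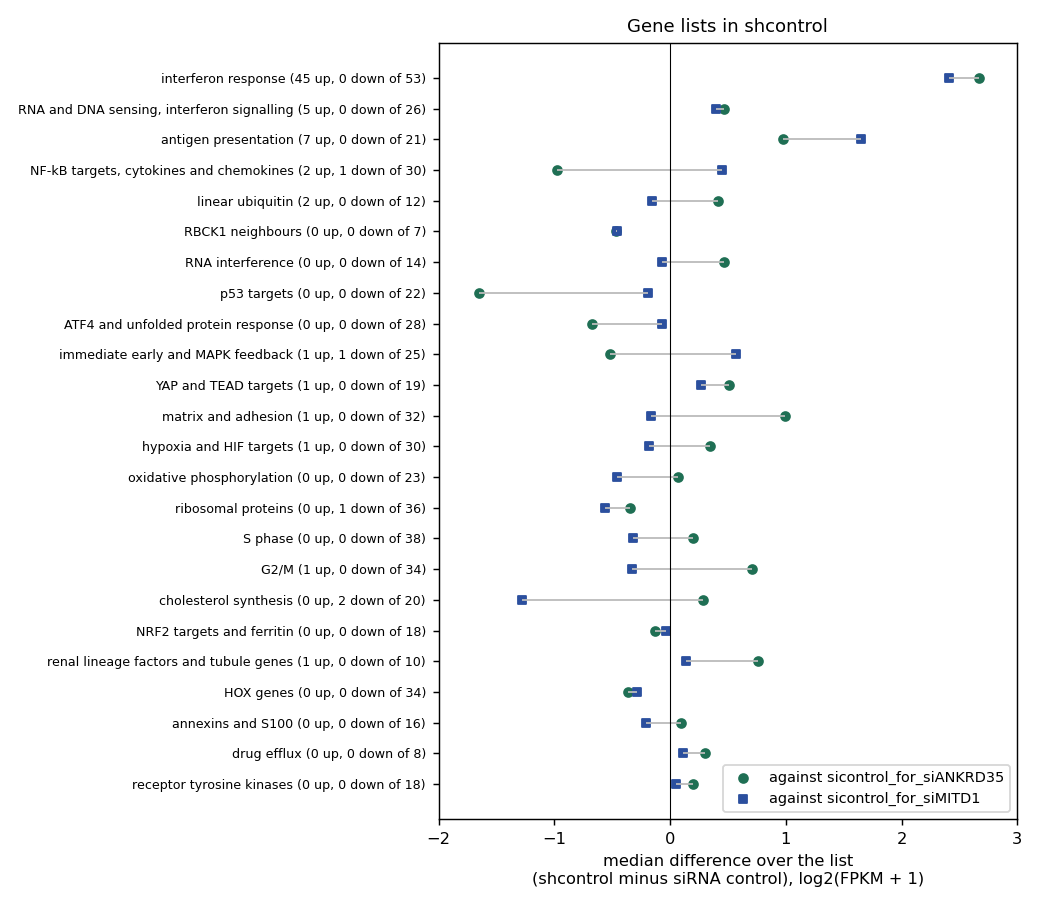
Median difference of mean log2(FPKM + 1) over each of 24 gene lists between shcontrol and the siANKRD35 control (circles) and the siMITD1 control (squares); labels give members higher and lower of those compared. The interferon response list lies at 2.67 and 2.41, and the medians of many lists fall on both sides of 0.

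Other pathways held few members, beside 2.29% of all genes higher and 0.712% lower. At those shares a list of this size would hold few members or none, so such counts say little about a list. No gene was called in the lists of RNA interference (14 compared), p53 targets (22), ATF4 and unfolded protein response (28), oxidative phosphorylation (23), S phase (38), NRF2 targets (18), HOX genes (34), annexins and S100 (16), drug efflux (8) and receptor tyrosine kinases (18). Single members were higher in the lists of hypoxia (PFKFB4, 30 compared), YAP and TEAD targets (NT5E, 19) and matrix (ITGA2, 32). The same held for G2/M (NUSAP1, 34) and renal lineage (LHX1, 10). NUSAP1 was below 0.5 FPKM in all siMITD1 control and siMITD1 libraries, so its difference from the siMITD1 control is uncertain. In the immediate early list (25 compared) KLF4 was higher and JUND lower. Of 36 ribosomal protein genes, RPS27 was lower and 0 were higher. The shcontrol mean was below both siRNA control means for 26 of the 36 and above both for 1. It was below both for 15 of the 22 p53 targets and above both for 0. For the 34 HOX genes these counts were 23 and 4, beside 3259 and 3535 of all 11793 genes. PFKFB4, which makes and degrades the glycolytic activator fructose 2,6-bisphosphate, measured 21.4, 21.8 and 21.5 FPKM in shcontrol, 0.810, 0.662 and 0.9002 in the siANKRD35 control and 6.203, 6.88 and 6.198 in the siMITD1 control. The shcontrol libraries were thus above all siRNA control libraries, as the rule requires. They overlapped with the shRBCK1 libraries, whose mean was 20.8 FPKM. In cholesterol synthesis 2 of 20 genes compared were lower (INSIG1 and FDPS) and 0 higher, a count that rests on 2 genes. INSIG1, which holds back the SREBP pathway, measured 17.2, 18.5 and 18.2 FPKM in shcontrol against 44.2, 46.1 and 48.4 and against 81.4, 79.1 and 82.6.

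Of the 15 largest increases, 11 were in the interferon response list, and the others were CCL5, RN7SL2, MROH6 and AMH. AMH, the gene of anti-Müllerian hormone, measured 58.3, 64.0 and 58.0 FPKM in shcontrol, 3.68, 3.52 and 2.77 in the siANKRD35 control and 4.42, 5.94 and 5.57 in the siMITD1 control. MROH6 measured 19.8, 20.3 and 19.3 FPKM in shcontrol and at most 0.794 in any siRNA control library. For both, the lack of overlap follows from the rule. RN7SL2, an RNA of the signal recognition particle, measured 430, 398 and 562 FPKM in shcontrol and at most 2.41 in the siRNA controls; it has near-identical copies in the genome, so its value is uncertain. CD274 and SAMHD1, which are in none of the lists, were chosen here after their values were seen. CD274, the gene of PD-L1, measured 17.9, 18.2 and 18.3 FPKM in shcontrol, 4.43, 5.34 and 4.69 in the siANKRD35 control and 5.29, 5.52 and 5.70 in the siMITD1 control. SAMHD1, a nucleotide hydrolase that restricts viruses, measured 24.8, 24.1 and 25.7 FPKM against 3.60, 3.73 and 3.96 and against 7.84, 6.77 and 6.72.

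The 84 lower genes had smaller differences, with 5 at least 4-fold lower, beside 52 of the 270 higher genes. The median of the smaller of the 2 differences was −1.19 for the lower genes and 1.35 for the higher genes. EDN2, the gene of the vasoconstrictor endothelin-2, had the largest decrease: 0.465, 0.342 and 0.505 FPKM in shcontrol, 19.99, 17.7 and 19.96 in the siANKRD35 control and 26.6, 30.6 and 29.3 in the siMITD1 control. Among the control groups it was close to absent in shcontrol alone. ALDH1A1, a retinaldehyde dehydrogenase, measured 15.97, 16.3 and 14.3 FPKM in shcontrol, 120, 124 and 118 in the siANKRD35 control and 74.6, 74.6 and 77.4 in the siMITD1 control. CRABP2, which carries retinoic acid to its nuclear receptor, measured 1.49, 1.25 and 2.63 FPKM in shcontrol, 20.9, 19.95 and 21.1 in the siANKRD35 control and 7.25, 8.28 and 6.204 in the siMITD1 control. Both genes handle retinoids, but no list of retinoid genes was compared.

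UGCG, which makes glucosylceramide, measured 28.9, 28.4 and 29.01 FPKM in shcontrol, 110, 116 and 105 in the siANKRD35 control and 108, 109 and 106 in the siMITD1 control. The haem transporter gene SLC48A1 measured 6.08, 6.06 and 5.97 FPKM in shcontrol, 34.3, 32.8 and 31.5 in the siANKRD35 control and 30.9, 33.0 and 31.0 in the siMITD1 control. In these genes the siRNA controls were alike and shcontrol was 3.74-fold to 5.44-fold lower. The transcription factor genes JUND and CEBPD were lower too, at 16.7 ± 1.1 and 20.4 ± 1.8 FPKM in shcontrol (SD, n = 3), beside 68.8 ± 3.8 and 81.7 ± 6.2 in the siANKRD35 control and 67.3 ± 2.4 and 60.2 ± 3.8 in the siMITD1 control. ELF3, GAMT, GALK1, COMMD6, ATP6V0E2, SDHAF4 and RPS27 were also among the 15, with means of 1.30 to 219 FPKM in shcontrol. The remaining gene, MTATP6P1, is a pseudogene of a mitochondrial gene, and its value is uncertain.

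Close to the threshold, MYD88, the adaptor of Toll-like receptors, was just inside, at 30.4, 30.6 and 31.8 FPKM in shcontrol and 15.6, 14.1 and 15.1 in the siMITD1 control, where the difference was 1.005. HERC3 and LPCAT1 were also just inside. IFI16, a DNA sensor, fell just outside, at 51.4, 51.0 and 50.8 FPKM against 24.2, 24.9 and 26.1 in the siANKRD35 control, and so did SIPA1L1 and PSMB8. Among lower genes FDPS, ANP32E and RPL21P28 were just inside and FDXR, SUMF1 and NUDT2 just outside.

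Gene length and class differed among the members. Of genes of up to 500 bases, 33 of 285 were higher (11.6%) and 1 was lower, beside 2.29% and 0.712% of all genes. Their median difference was 0.61 from the siANKRD35 control and 0.50 from the siMITD1 control. Only 5 of these 33 averaged at least 10 FPKM in shcontrol. By class, the 270 higher genes of any length include 14 miRNA, 9 snoRNA and 4 snRNA genes. Of genes over 6000 bases 2.17% were higher and 0.158% lower, whereas of genes of 501 to 2000 bases 2.95% were higher and 2.21% lower. Protein-coding genes made up 225 of the 270 higher and 79 of the 84 lower genes.

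**Figure D4:**
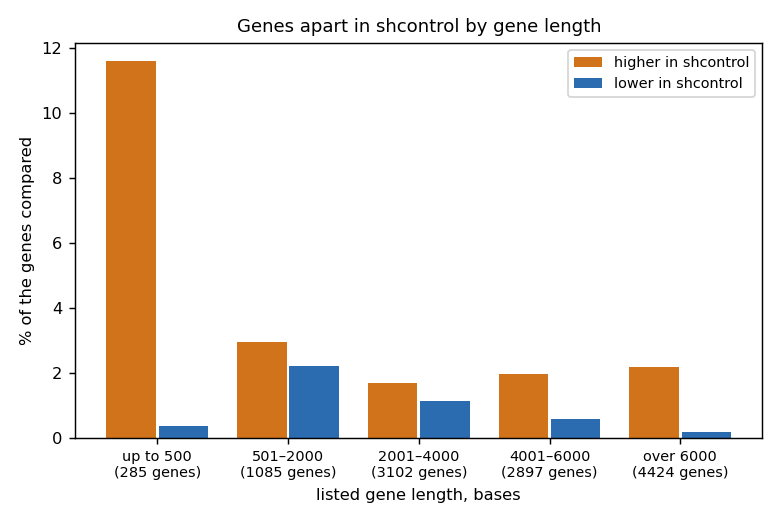
Share of the genes compared that were higher (orange) or lower (blue) in shcontrol than in both siRNA controls, by listed gene length in bases, with the number of genes in each class. Genes of up to 500 bases had the largest higher share, 11.6%, and genes over 6000 bases the smallest lower share, 0.158%.

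The knockdown libraries gave a second hairpin group and 2 further siRNA groups, none of them used to choose the members. By the same rule, 157 of all genes were higher in shRBCK1 than in siANKRD35 and siMITD1 (1.33%) and 80 were lower (0.678%). With equal totals per library that split became 289 against 38. Of the 270 genes higher in shcontrol, 62 were also higher in shRBCK1 (23.0% of the 270 and 39.5% of the 157), and 0 were lower. Of the 84 lower genes, 24 were also lower (28.6% of the 84 and 30% of the 80), and 0 were higher. These libraries share tables with the controls, and the difference holds the effects of 3 knockdowns.

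The interferon genes took no part in that overlap. Of the 45 interferon response members, 0 were higher in shRBCK1 than in both siRNA knockdowns, against 62 of the other 225 (27.6%). The median FPKM over the 53 interferon genes was 4.88, 5.01 and 5.12 in the shRBCK1 libraries, 3.41, 4.26 and 3.799 in siANKRD35 and 4.99, 5.09 and 5.25 in siMITD1. The interferon level of shRBCK1 was thus close to those of the siRNA groups, and the 3 shcontrol libraries stood alone among the 18. Among the 15 largest decreases, 8 had the same call in the knockdown libraries: EDN2, ALDH1A1, JUND, MTATP6P1, UGCG, CRABP2, CEBPD and RPS27. Among the 15 largest increases only RN7SL2, MROH6 and AMH did. AMH measured 26.1, 32.9 and 31.9 FPKM in shRBCK1, beside means of 2.64 in siANKRD35 and 4.85 in siMITD1. UGCG measured 30.7, 30.1 and 30.5 FPKM in shRBCK1, beside 120 and 96.8.

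**Figure D5:**
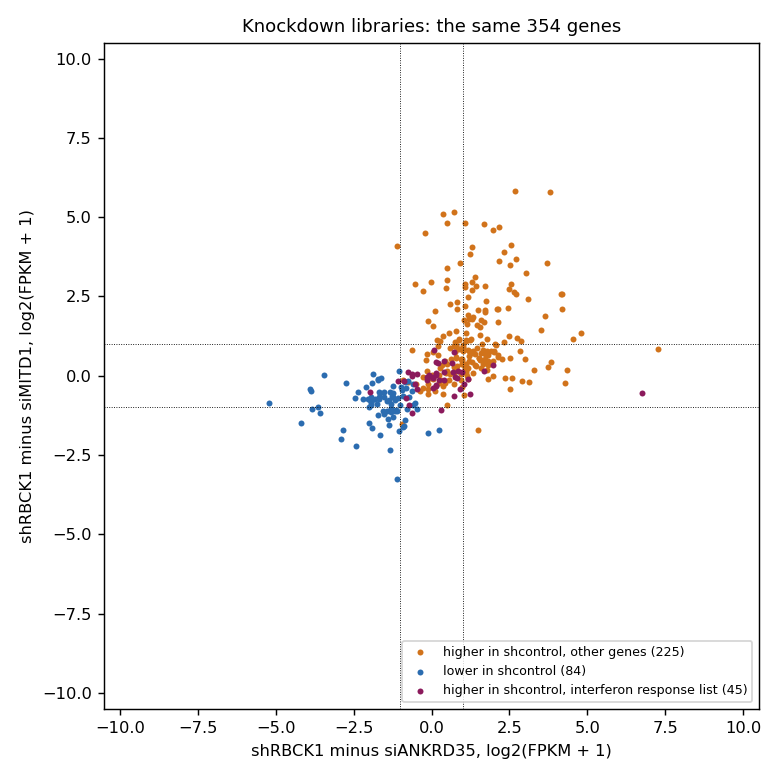
The same 354 genes in the knockdown libraries: difference of mean log2(FPKM + 1) of shRBCK1 from siANKRD35 (x axis) and from siMITD1 (y axis), with dotted lines at 2-fold. None of the 45 interferon response members lies past 2-fold on both axes in the upper right, where 62 of the other higher genes were called.

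Within the RBCK1 table, shRBCK1 could be tested against shcontrol, and limma called 2951 of 12227 genes higher (24.1%) and 3049 lower (24.9%) in shRBCK1. Voom on the recovered reads, without scaling between libraries, split its calls 4192 to 2669. This test shares the shcontrol libraries with the comparison above, so its values are set beside it as a description. Apart from RBCK1, the genes given here were chosen by their levels in those same libraries, which favours a difference. Their p-values thus add no support. All p-values here rest on a spread between libraries that may be technical. IFI6 was lower in shRBCK1 by a log2 change of −4.74 (SE 0.059, limma adjusted p = 3.06e-09), OAS2 by −5.73 (SE 0.049, limma adjusted p = 1.08e-09) and STAT2 by −2.27 (SE 0.044, limma adjusted p = 2.27e-08). Each was lower in 3 of 3 libraries. RBCK1 fell with a log2 change of −3.87 (SE 0.038, limma adjusted p = 1.08e-09). AMH changed less, by −0.97 (SE 0.085, limma adjusted p = 9.86e-05). PFKFB4 and UGCG did not pass the test, with log2 changes of −0.05 (SE 0.038, limma adjusted p = 0.30) and 0.08 (SE 0.029, limma adjusted p = 0.0589).

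The labelled cell type and other possible cells were checked with markers. Of the 7 markers of a renal carcinoma line, 7 were compared and 0 called, and PAX8, a renal lineage factor, measured 29.2, 31.1 and 28.6 FPKM in shcontrol, 48.3, 46.1 and 43.3 in the siANKRD35 control and 35.3, 34.4 and 35.3 in the siMITD1 control. The summed level of the 7 ranged from 771.6 to 794.4 FPKM in shcontrol, 1011 to 1052 in the siANKRD35 control and 782.9 to 799.7 in the siMITD1 control. Of the lists for other cells (an embryonic kidney line, blood, endothelial cells and fibroblasts), 7 markers were compared and 0 called. These were 2 of 6, 1 of 7, 1 of 6 and 3 of 7 markers in that order, and the rest were not compared. Over all genes 2.29% were higher and 0.712% lower, so 0 calls among so few markers says little about cell type. The summed fibroblast list ranged from 5.03 to 5.88 FPKM in shcontrol, 34.9 to 37.9 in the siANKRD35 control and 6.43 to 7.49 in the siMITD1 control, where THY1, at 36.9, 35.0 and 34.1 FPKM in the siANKRD35 control, made up the difference. The summed embryonic kidney list ranged from 34.3 to 35.0 FPKM in shcontrol, 4.55 to 5.56 in the siANKRD35 control and 61.1 to 62.2 in the siMITD1 control, nearly all of it NEFL. The summed endothelial list ranged from 4.26 to 5.28, 20.3 to 27.3 and 9.62 to 10.3 FPKM, and the blood cell list from 2.20 to 2.70, 0.915 to 1.31 and 4.29 to 5.06 FPKM, in the same order of groups. The part of these differences in the results was not tested, and in bulk RNA fewer cells of a type and less RNA per cell cannot be told apart.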

How the data were processed

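Titles placed the 18 RNA-seq libraries in 6 groups. Per the file headers, the authors deposited FPKM values in 3 tables. The submitters' processing notes name the mouse build mm10, which the human Ensembl identifiers and coordinates (GENCODE 29 on GRCh38) contradict; the aligner, the counter and the strand counted are not given in the sources used here. In addition, the ANKRD35 table also holds 6 value columns of no sample, which were not used.

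Genes were joined by symbols listed once in each of the 3 tables (29848), and 11793 averaging 1 FPKM or more in at least 1 control group were compared as log2(FPKM + 1), which understates changes of low genes. Values were used as deposited, without further scaling. Whole reads were recovered from FPKM and gene length (tolerance 0.01 reads, 100% of values whole in the tables of RBCK1 and ANKRD35). In that of MITD1, which lists no lengths, 10641 of the 11793 genes compared fit the same lengths and reads of the others are uncertain. Their FPKM there may rest on another length, and B2M, IFIH1, IFI27, TAP1, LHX1 and RPS27 are among them. Limited to genes that fit, 221 were higher and 75 lower in shcontrol, with 43 of the interferon response list higher. Replicates differed by more than counting noise (chi-square per gene at least 2.12), and none were identical. Genes named are those of the axis, the 15 largest differences in each direction and means of 5 FPKM or more, up to 5 called members or the highest member of each of 29 lists, and 3 genes on either side of the threshold; others named were chosen after their values were seen. Some members of the lists are not reported here. The members and lists were chosen with earlier results of these data known. shRBCK1 and shcontrol were tested with limma-trend (limma 3.58.1, R 4.3.3) on log2(FPKM + 1), two-sided, with Benjamini-Hochberg adjustment at 0.05. Both procedures were tested on simulated data. Alternatives were other scalings, pseudocounts, filters and fold minimums, matched lengths only, each library left out, and voom on the recovered reads. No scaling between libraries had been set for voom, so it was run without scaling and, chosen after seeing the data, with median-of-ratios scaling. Python 3.11.15 and pandas 2.3.3 were used.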

Additional observations from a re-analysis of the deposited data

How the results depend on the processing

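The direction of each of the 57 named genes that met the rule held in each alternative run, and 42 to 50 interferon response genes were higher in each except the 4-fold minimum (the filters also change how many of the list are compared). In shcontrol, median-of-ratios scaling gave 261 higher and 79 lower genes, of which 240 and 70 were among the members, equal totals 321 and 62, and quantile normalization 247 and 97. The median log2 difference of all genes from the siANKRD35 and siMITD1 controls was 0.13 and −0.048 as deposited, 0.0094 and 0.0015 with median of ratios, and 0.12 and 0.059 with equal totals. The knockdown comparison did move with equal totals, to 289 higher and 38 lower, with 94 and 11 shared with shcontrol. A pseudocount of 0.1 gave 413 higher and 233 lower in shcontrol, 1351 lower in the siANKRD35 control, 513 and 612 in the siMITD1 control, 289 and 178 in shRBCK1, and 122 and 57 shared. With at least 5 FPKM required, 477 genes were higher in the siANKRD35 control. With no fold minimum the counts of higher and lower genes were 2559 and 2178 (shcontrol), 3092 and 4548 (siANKRD35 control), 3533 and 2011 (siMITD1 control), 2248 and 2064 (shRBCK1) and 1315 and 1154 (shared). With a 4-fold minimum they were 52 and 5, 271 and 165, 35 and 208, 24 and 3, and 10 and 0 in the same order, and 29 interferon genes were higher.

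Leaving out a library gave 270 to 298 higher and 82 to 91 lower in shcontrol, 829 to 847 and 842 to 872 in the siANKRD35 control, 310 to 322 and 404 to 412 in the siMITD1 control, 155 to 166 and 78 to 84 in shRBCK1, and 60 to 67 and 21 to 26 shared. The limma counts then ran from 2382 to 2610 higher and 2406 to 2835 lower. With a replicate block limma called 2564 higher and 2783 lower. Voom on recovered reads called 4192 and 2669, and 3192 and 3355 after median-of-ratios scaling, which was added after seeing the data. Same-numbered shRBCK1 and shcontrol libraries did not deviate together (correlations −0.0068, 0.0076 and 0.0284), so the numbers were not taken as pairs. Also chosen after seeing the data, leaving out genes near 0 in the MITD1 table gave 260 and 84, and leaving out genes of up to 500 bases 237 and 83. Depth limits the low genes: IFNB1 rests on 153 reads.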
